A study of Arabidopsis with 12 samples.

Results

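The transcripts described here stood high in untreated seedlings of the jasmonate receptor mutant coi1-2 and lower in the same mutant after methyl jasmonate (MeJA). A probe set was a member when its mean log2 level was at least 1 higher in coi1-2 mock than in Col-0 mock and at least 0.8 lower in coi1-2 MeJA than in coi1-2 mock, with both coi1-2 MeJA arrays below both coi1-2 mock arrays. Of 22746 probe sets 121 met this rule, and 119 remained after WRKY53 and PRX52 were left out by name. The rule used 6 arrays, and the same 2 coi1-2 mock arrays entered both of its differences. The members were thus chosen by their levels in Col-0 mock, coi1-2 mock and coi1-2 MeJA, and those levels are given as a description without a test.

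Seedlings were raised for 7 days on MS medium in long days at 23 °C, given 100 µM MeJA or ethanol (mock) for 4 h, and sampled whole. All had the Columbia background: the wild type Col-0, the mutant coi1-2 and the double mutant ein3 eil1. Each of the 6 groups had 2 ATH1 arrays, 12 in all, and values are log2 levels after RMA, a method that corrects background, equalises the distributions of the arrays and combines the probes of a set. The design asks how much of the MeJA response needs COI1 and how much needs EIN3 with EIL1.

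COI1 is the F-box protein that perceives the bioactive jasmonate together with JAZ repressors and marks these for degradation, which releases transcription factors such as MYC2. EIN3 and EIL1 are transcription factors that carry the ethylene signal into the nucleus, and JAZ proteins also bind them. Jasmonate acts in wounding, in defence, in root growth and in fertility, and it opposes salicylic acid in part of the defence response. A change with MeJA in coi1-2 is one that occurred in a mutant of the receptor.

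EIN3 was at 9.26 to 9.59 on the 8 Col-0 and coi1-2 arrays and at 5.91 to 6.25 on the 4 ein3 eil1 arrays, while COI1 and EIL1 were not analysed here. Array medians over all probe sets lay between 5.22 and 5.39. The replicate arrays of a group correlated at 0.9898 to 0.9961, and the widest pair was ein3 eil1 MeJA, whose members differed between the replicates with an SD of 0.571 against 0.276 to 0.362 in the other groups. For the members, the medians and most named calls of both tested comparisons are therefore given without each of its arrays as well. There the array left alone is assumed to vary like the other groups. Of the markers of leaf, root and maturing seed, 1 of 10, 1 of 10 and 0 of 10 had a named probe set: RCA, the leaf's Rubisco activase, was at 12.47 to 12.77 on all 12 arrays, and the root hair expansin EXPA7 was at 6.07 to 7.42. In whole seedlings, fewer cells of a type and less RNA per cell cannot be told apart. Whether the replicates were grown separately is not stated in the labels, so the p-values cover only the spread among these arrays, possibly a technical one.

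The annotation used gave 65 members 1 gene name, 53 none and 1 several. Of the 65, 7 have a symbol and 58 a locus code only, for which the annotation gives no function and no role is stated here. Of all probe sets, 648 (2.85%) were at least 1 higher in coi1-2 mock than in Col-0 mock, and 202 (0.888%) met the condition on MeJA in coi1-2. At the first threshold the members just inside were 2 unnamed probe sets at 1.001 and 1.021 and the defensin gene PDF1.4 at 1.041, and just outside lay 3 unnamed probe sets at 0.987, 0.943 and 0.940. At the second, 2 unnamed probe sets at −0.806 and −0.809 and AT3G23170 at −0.819 lay inside, and an unnamed probe set at −0.798, AT3G22060 at −0.794 and an unnamed probe set at −0.790 lay outside.

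Seen over all members, the median level was 5.0 and 4.97 on the 2 Col-0 mock arrays and 7.32 and 7.41 on the 2 coi1-2 mock arrays. It was 6.07 and 6.10 on the coi1-2 MeJA arrays. Outside the rule, the medians were 4.77 and 4.72 on the Col-0 MeJA arrays, 5.70 and 5.90 on the ein3 eil1 mock arrays, and 4.84 and 5.44 on the ein3 eil1 MeJA arrays. The members thus centred lowest in Col-0 under MeJA and highest in coi1-2 mock, and the ein3 eil1 mock arrays lay between Col-0 mock and coi1-2 MeJA. In Col-0 mock 65 members were below the median of all probe sets, against 5 in coi1-2 mock, and for these the size of a difference may be compressed by the array's background.

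**Figure D1:**
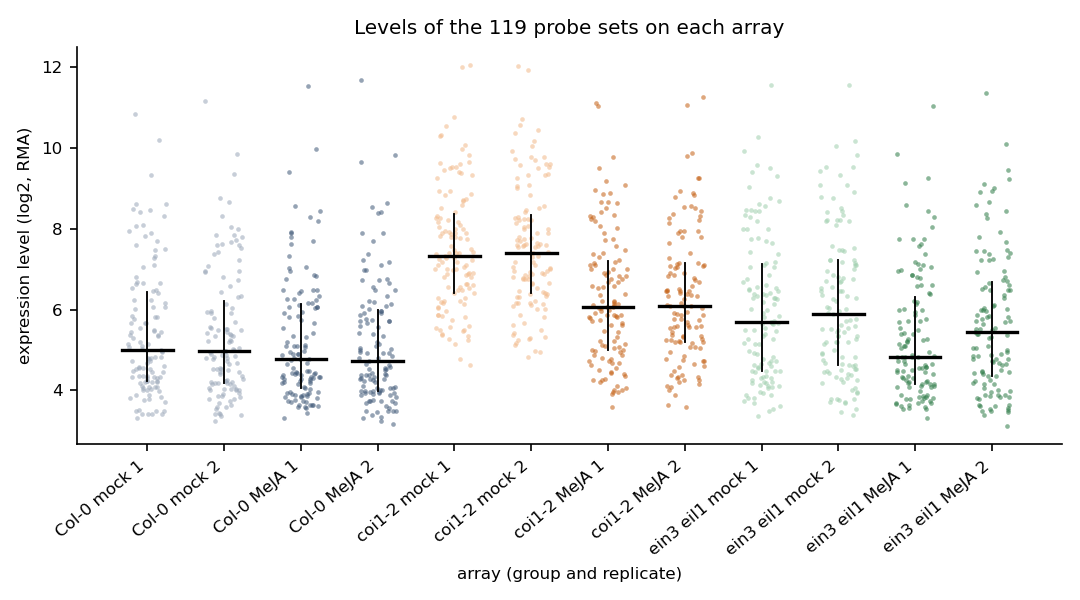
Levels (log2, RMA) of the 119 members on each of the 12 arrays, 1 point per probe set, with a horizontal bar at the median and a vertical line over the middle of the distribution (lower to upper quartile). The coi1-2 mock arrays have the highest medians (7.32 and 7.41), as the rule requires, and ein3 eil1 MeJA replicate 2 (5.44) lies above replicate 1 (4.84).

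The difference between coi1-2 mock and Col-0 mock ran from 1.00 to 4.41 with a median of 1.94, and the change with MeJA in coi1-2 from −2.31 to −0.81 with a median of −1.11. MeJA did not take most members back to the Col-0 level. On the log2 scale the median member lost 62.6% of its excess over Col-0 mock, with a range of 22.3% to 129%, and 36 members lost under 50%. In 8 members the coi1-2 MeJA mean was at or below the Col-0 mock mean, among them PDF1.4, BGLU40, AT1G44830, AT1G72060 and AT1G51890, named here because their values were low. Under MeJA, coi1-2 still lay above Col-0 in 104 members with both arrays (87.4%, against 24.8% of all probe sets). It lay below Col-0 in 1 member (0.84%, against 25.5%), and the median difference was 0.94.

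Among the genes with a symbol, ATPMEPCRB had the widest mock difference and the widest change with MeJA in coi1-2, at 3.46 and −2.26. It encodes a pectin methylesterase, an enzyme that removes methyl groups from wall pectin. Its Col-0 mock arrays read 3.88 and 4.03, its coi1-2 mock arrays 7.28 and 7.55, and its coi1-2 MeJA arrays 5.08 and 5.23. In ein3 eil1 the mock arrays (4.13 and 4.39) lay slightly above, and the MeJA arrays (3.88 and 3.84) within, the range of the Col-0 arrays, where Col-0 MeJA read 3.63 and 3.40. The coi1-2 values lay above those of both other genotypes under both treatments. CCR2 encodes a cinnamoyl-CoA reductase, which acts on the way to lignin monomers. Its Col-0 mock arrays read 4.32 and 4.24, its coi1-2 mock arrays 6.64 and 6.4, and its coi1-2 MeJA arrays 5.0 and 4.76. In ein3 eil1 mock CCR2 read 5.85 and 5.92, further above its Col-0 mock level than ATPMEPCRB was.

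PDF1.4 belongs to the plant defensins, small cysteine-rich peptides. Col-0 mock read 8.48 and 8.31 against 9.27 and 9.61 for coi1-2 mock, among the narrowest differences of the set, and coi1-2 MeJA read 8.19 and 8.32. Untreated ein3 eil1, with 9.31 and 9.53, was in the range of coi1-2 mock. ATHSP22.0 encodes a small heat shock protein, a chaperone that binds unfolding proteins. Col-0 mock read 4.22 and 4.1, coi1-2 mock 5.49 and 5.17, and coi1-2 MeJA 4.1 and 4.39. Its highest group mean was that of ein3 eil1 mock, with arrays at 7.05 and 7.49, above both coi1-2 groups.

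HIS1-3 encodes a linker histone known to be induced by drought and abscisic acid. Col-0 mock read 4.09 and 4.21, coi1-2 mock 6.3 and 6.32, and coi1-2 MeJA 4.25 and 4.22, so that 96.3% of its excess was lost. WES1, also called GH3.5, is an enzyme that conjugates auxin to amino acids. Col-0 mock read 8.33 and 8.0, coi1-2 mock 9.33 and 9.34, and coi1-2 MeJA 8.51 and 8.38. The beta-glucosidase gene BGLU40 was at 6.02 and 5.69, then 7.02 and 6.89, and 5.8 and 5.89 in the same 3 groups. These 3 genes had low spread between replicates in coi1-2, and none of the coi1-2 mock arrays overlapped the other groups of Col-0 or coi1-2.

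Of the members known by locus code, AT3G18250 had the widest mock difference, where Col-0 mock read 4.47 and 5.23, coi1-2 mock 8.87 and 9.58, and coi1-2 MeJA 7.39 and 7.94. AT5G52760 followed, at 3.41 and 3.25, then 7.32 and 7.55, and 5.84 and 6.10. AT1G26380 was at 4.20 and 4.03, then 7.82 and 8.24, and 6.22 and 6.46. In each of the 3, coi1-2 MeJA stayed far above Col-0, and only 35.6%, 35.7% and 43.2% of the excess was lost. AT2G17740 (3.91), AT3G47480 (3.60), AT2G44370 (3.29), AT1G65500 (3.14) and AT5G52750 (3.06) came next by the coi1-2 mock minus Col-0 mock difference. Only 1 probe set, without a gene name, exceeded AT3G18250, with 4.09 and 4.15 in Col-0 mock against 8.6 and 8.47 in coi1-2 mock.

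By the change with MeJA in coi1-2 the order was another. In AT5G42830, Col-0 mock read 4.36 and 4.68, coi1-2 mock 7.1 and 7.59, and coi1-2 MeJA 5.01 and 5.08, a change of −2.30. AT1G65500 (−2.21), AT2G43620 (−1.97), AT1G72060 (−1.78), AT2G44370 (−1.74), AT1G26420 (−1.72), AT1G26380 (−1.69) and AT5G47330 (−1.63) followed among the locus codes. AT1G72060 was below the wild type mock level after MeJA, with coi1-2 mock at 10.31 and 9.93, coi1-2 MeJA at 8.41 and 8.27, and Col-0 mock at 8.63 and 8.77. It was also the member with the lowest change in Col-0, where MeJA gave 6.86 and 6.74. In this gene the coi1-2 MeJA arrays stayed above the Col-0 MeJA arrays although they lay below Col-0 mock.

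The 2 arrays of ein3 eil1 mock and the 2 of ein3 eil1 MeJA did not enter the rule, and the comparison between them asks whether MeJA also lowered these transcripts without EIN3 and EIL1. MeJA lowered 34 of the 119 members in ein3 eil1, or 28.6%, against 2.59% of all probe sets (limma, Benjamini-Hochberg adjusted p under 0.05 over all 22746 probe sets). It raised 0 members against 1.64% of all probe sets, and at an unadjusted p under 0.05 limma had 0 members higher (6.8% of all probe sets) and 59 lower (9.29%). The median member changed by −0.43, against 0.01 for all probe sets, and 102 of the 119 were below 0. Both MeJA arrays lay below both mock arrays in 64 members (53.8%, against 21.5% of all probe sets) and above both in 6 (5.04%, against 21.6%). The other 85 members were not called. Without ein3 eil1 MeJA replicates 1 and 2 the median was −0.30 and −0.55, and 88 and 101 members were below 0. The array that remained lay below both mock arrays in 75 and 91 members, for which the share of all probe sets was not computed.

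AT4G37220 had the smallest adjusted p in this comparison, with 7.42 and 7.22 in ein3 eil1 mock and 5.42 and 5.81 in ein3 eil1 MeJA. The difference between the means of 2 arrays each was −1.71 on the log2 scale with a standard error of 0.14, a 3.27-fold fall (limma adjusted p = 6.88e-05). Every ± below is such a standard error. Each standard error rests on a spread per probe set shared by all 6 groups, not on the compared arrays alone. That spread includes the 6 arrays by which the rule chose the members. Because the spread is shared, a standard error can be too small where the 2 ein3 eil1 MeJA arrays lay far apart. AT4G37220 was also lower with MeJA in Col-0, from 7.82 and 7.86 to 6.27 and 6.21, so that coi1-2 and both other genotypes each had their MeJA arrays below their mock arrays. BGLU40 fell from 7.77 and 7.24 to 5.25 and 5.53, by 2.12 on the log2 scale (SE 0.22, limma adjusted p = 0.000202). HIS1-3 fell from 4.93 and 5.36 to 3.80 and 3.61, by 1.44 (SE 0.15, limma adjusted p = 0.000215). In ein3 eil1 MeJA both reached the range of Col-0 or lay just below it, since the Col-0 arrays of HIS1-3 were at 3.75 to 4.21 and those of BGLU40 at 5.32 to 6.02.

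WES1 went from 7.99 and 8.10 to 6.58 and 6.74, a change of −1.38 ± 0.18 (limma adjusted p = 0.00102). It started at the wild type level, and the ein3 eil1 MeJA arrays were the lowest of all 12 arrays for this gene. AT5G47330 had the widest change of the named members, from 6.85 and 7.46 to 4.58 and 4.85, or −2.44 ± 0.31 (5.42-fold, limma adjusted p = 0.00082). AT2G16630 went from 8.61 and 8.77 to 7.12 and 6.82 (−1.72 ± 0.20, limma adjusted p = 0.000501) and AT3G50570 from 7.11 and 7.24 to 5.16 and 4.79 (−2.20 ± 0.29, limma adjusted p = 0.00102). The groups did not overlap in any of these genes. AT5G61890 completed the 8 smallest adjusted p-values among named members at −1.31 ± 0.17 (limma adjusted p = 0.00106). All 8 kept their calls without either ein3 eil1 MeJA array. AT5G61890 moved the most among them, to −1.0 without replicate 1 and −1.62 without replicate 2, and AT4G37220 to −1.51 and −1.91. The ranges were −2.26 to −1.98 for BGLU40, −1.54 to −1.35 for HIS1-3, −1.46 to −1.31 for WES1, −2.57 to −2.30 for AT5G47330, −1.87 to −1.57 for AT2G16630 and −2.38 to −2.01 for AT3G50570.

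**Figure D2:**
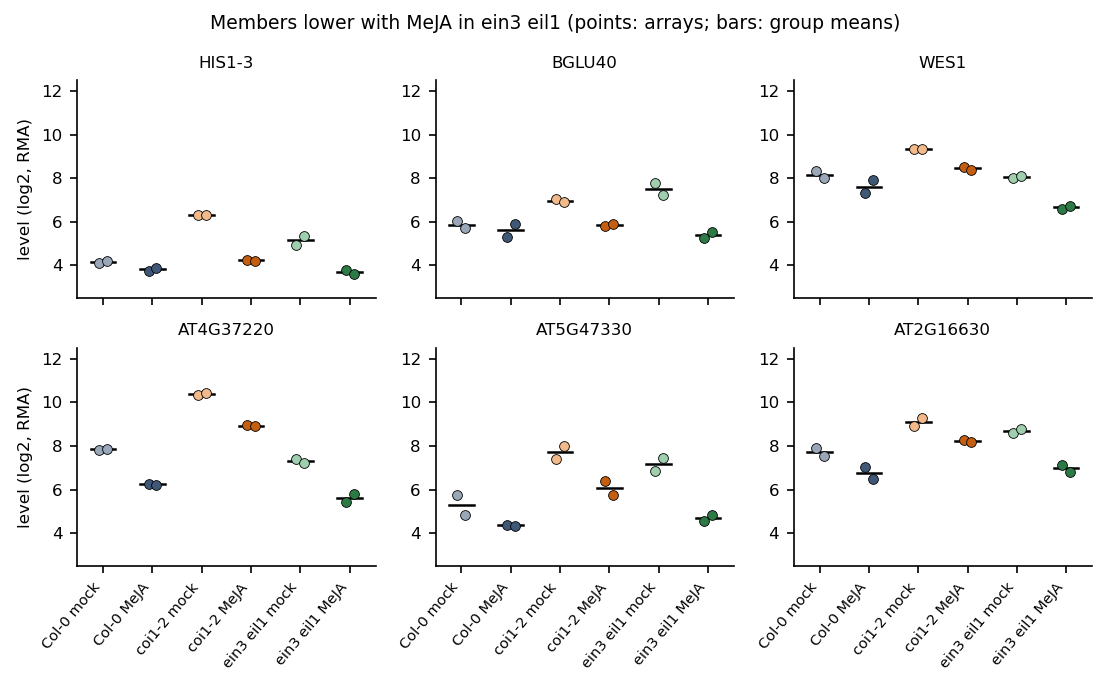
Levels (log2, RMA) of 6 members that MeJA lowered in ein3 eil1, in the 6 groups, with 1 point per array and a bar at the mean of the 2 arrays. HIS1-3, BGLU40 and AT5G47330 stood above Col-0 mock in ein3 eil1 mock, while WES1 and AT4G37220 did not, and in each gene both ein3 eil1 MeJA arrays lie below both ein3 eil1 mock arrays.

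Of the 34 calls, 19 were named members and 15 were not. The remaining named calls, listed after their values were seen, were AT1G19530, AT1G65490, AT1G74010, AT2G39210, AT1G80450, AT5G19340, AT2G17740, AT4G35720, AT1G51620, AT1G24140 and AT1G62770. The calls of AT2G17740 (−0.61) and AT4G35720 (−0.62) were lost without any 1 of the 4 arrays of the comparison. Such results are not given here for AT1G74010, AT2G39210, AT1G80450, AT5G19340, AT1G51620, AT1G24140 and AT1G62770. The other symbol genes were not called: ATPMEPCRB was at −0.39 ± 0.15 (limma adjusted p = 0.189), CCR2 at −0.58 ± 0.23 (0.23), PDF1.4 at −0.92 ± 0.25 (0.0626) and ATHSP22.0 at −0.68 ± 0.37 (0.4). For CCR2 and ATHSP22.0 the 2 ein3 eil1 MeJA arrays were far apart, at 4.84 and 5.77 and at 5.78 and 7.39. Without replicate 2 of ein3 eil1 MeJA, CCR2 was at −1.05, PDF1.4 at −1.36 and ATHSP22.0 at −1.49, and each was then called lower (limma adjusted p = 0.00429, 0.00443 and 0.00233). Without replicate 1 they were at −0.11, −0.48 and 0.12 and were not called. ATPMEPCRB was not called without either array.

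The count of 34 rested on few arrays. It fell without either ein3 eil1 mock array and without ein3 eil1 MeJA replicate 1, and it rose without ein3 eil1 MeJA replicate 2. The share of all probe sets called lower moved the same way in each of these fits. A fit of the 6 arrays that the rule did not use called 26, of which 24 were among the 34, against 1.41% of all probe sets lower. With the arrays centred on their medians, which moved the median of all probe sets to 0.1, 29 members were lower against 1.94% of all probe sets. The root marker EXPA7 was also lower with MeJA in ein3 eil1 (−0.88 ± 0.16, limma adjusted p = 0.0083), from 7.25 and 6.92 to 6.07 and 6.35, and lower in coi1-2 mock than in Col-0 mock (−0.86 ± 0.16, limma adjusted p = 0.00344). RCA was not called in either comparison, and their part in the members' results was not tested.

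The members did not rank alike by their changes in the 2 mutants. Across the 119 members the 2 changes had r = −0.14, given as a description, since the members share arrays and the rule cut the coi1-2 change at −0.8. ATPMEPCRB, AT1G65500, AT1G26380 and AT5G42830, at −2.30 to −1.69 in coi1-2, were at −0.39, 0.14, 0.11 and −0.01 in ein3 eil1. BGLU40 and AT3G50570, at −1.11 and −0.91 in coi1-2, were at −2.12 and −2.20 in ein3 eil1. HIS1-3 and AT5G47330 were low in both, at −2.08 and −1.63 in coi1-2 and −1.44 and −2.44 in ein3 eil1.

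**Figure D3:**
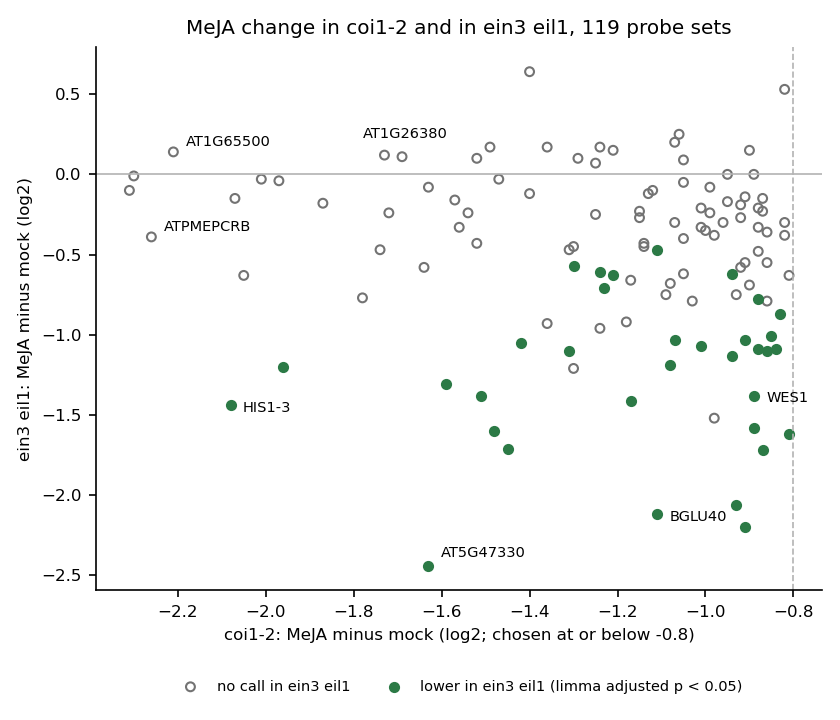
MeJA minus mock (log2) in coi1-2 on the x axis and in ein3 eil1 on the y axis for the 119 members, with the 34 that limma called lower in ein3 eil1 filled. All points lie at or left of the dashed line at −0.8 because the rule placed them there, and 102 lie below 0 on the y axis in no clear order along the x axis (r = −0.14).

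A second comparison outside the rule, ein3 eil1 MeJA against Col-0 MeJA, asks where the members stood between these genotypes once both had received MeJA. It uses the same ein3 eil1 MeJA arrays as the comparison above. Of the 119 members 23 were higher in ein3 eil1 (19.3%, against 2.9% of all probe sets) and 9 were lower (7.56%, against 2.55%), while 87 were not called. The median difference was 0.22, against 0.01 for all probe sets. Both ein3 eil1 arrays lay above both Col-0 arrays in 49 members (41.2%, against 21.9% of all probe sets) and below in 27 (22.7%, against 20.1%). Without ein3 eil1 MeJA replicates 1 and 2 the median was 0.34 and 0.11. The array that remained lay above both Col-0 arrays in 73 and 58 members and below both in 36 and 39. The matching shares of all probe sets were not computed, so these single-array counts are a description only.

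The neighbouring genes AT1G65500 and AT1G65490 had the 2 smallest adjusted p-values. AT1G65500 was at 7.13 and 7.30 in ein3 eil1 MeJA and at 4.33 and 4.11 in Col-0 MeJA, a difference of 2.99 ± 0.15 (7.96-fold, limma adjusted p = 1.62e-07). AT1G65490 was at 6.13 and 5.98 against 3.93 and 3.97, a difference of 2.1 ± 0.15 (4.3-fold, limma adjusted p = 5.33e-06). Both stood high in ein3 eil1 mock as well, at 7.05 and 7.10 and at 7.18 and 7.02. Under MeJA they parted: AT1G65490 fell in ein3 eil1 (−1.05 ± 0.15, limma adjusted p = 0.00194), while AT1G65500 was at 0.14 ± 0.15 (0.729). In coi1-2 both MeJA levels lay below mock, from 8.18 and 8.23 to 5.82 and 6.17 for AT1G65500 and from 6.06 and 6.4 to 4.77 and 4.85 for AT1G65490.

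AT2G43620 was higher in ein3 eil1 MeJA, at 7.75 and 8.26 against 6.05 and 5.71 in Col-0 MeJA (2.13 ± 0.23, limma adjusted p = 0.000151). Its Col-0 mock arrays were at 7.07 and 7.37, so that Col-0 lay lower with MeJA, while the ein3 eil1 mock arrays, at 7.74 and 8.34, spanned the range of its MeJA arrays. ATHSP22.0 was higher by 2.76 ± 0.37 (6.76-fold, limma adjusted p = 0.00072), at 5.78 and 7.39 against 3.91 and 3.74, and the difference was 3.56 and 1.95 without ein3 eil1 MeJA replicates 1 and 2. AT1G53540 was at 7.37 and 9.23 against 6.06 and 5.68 (2.43 ± 0.41, limma adjusted p = 0.0038), and without replicate 2 it was 1.5. Both kept their calls without any 1 of the 4 arrays, though that of AT1G53540 was lost in a fit of those 4 arrays alone (limma adjusted p = 0.0905), and both had their highest group mean in ein3 eil1 mock. AT1G65500, AT1G65490 and AT2G43620 kept their calls without either ein3 eil1 MeJA array, at 2.91 to 3.08, 2.03 to 2.18 and 1.87 to 2.38. Of the other calls, AT3G23170 was at 1.53 ± 0.27, AT2G17740 at 0.79 ± 0.15 and AT5G19240 at 0.72 ± 0.13 (limma adjusted p = 0.00507, 0.00657 and 0.00533). The call of AT3G23170 was lost in the fit of the 4 arrays of the comparison (limma adjusted p = 0.0861). AT2G17740 lost its call without Col-0 MeJA replicate 2 and AT5G19240 without Col-0 MeJA replicate 1 (0.0626 and 0.0509). CCR2 (0.98 ± 0.23, limma adjusted p = 0.0268) lost its call without either Col-0 MeJA array or ein3 eil1 MeJA replicate 2, and was at 1.45 and 0.52 without ein3 eil1 MeJA replicates 1 and 2. AT5G52760 (0.94 ± 0.25, limma adjusted p = 0.048) lost its call under 14 alternatives, among them quantile normalization and 11 that left out 1 array. It was at 1.45 and 0.43 without ein3 eil1 MeJA replicates 1 and 2, and only the former kept the call.

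Lower in ein3 eil1 than in Col-0 under MeJA were AT1G19530, with 8.45 and 8.45 against 9.97 and 9.67 (−1.37 ± 0.15, limma adjusted p = 0.000128), and WES1, with 6.58 and 6.74 against 7.32 and 7.91 (−0.95 ± 0.18, limma adjusted p = 0.00745). AT2G47550 was at 5.28 and 5.30 against 6.50 and 6.73 (−1.33 ± 0.26, limma adjusted p = 0.00938). WES1 and AT2G47550 lost their calls without Col-0 MeJA replicate 2 (0.07 and 0.078). All 3 kept them without either ein3 eil1 MeJA array, at −1.38 to −1.37, −1.03 to −0.88 and −1.34 to −1.32. AT4G37220 (−0.63 ± 0.14), AT4G35720 (−0.60 ± 0.15) and AT2G28570 (−0.76 ± 0.20) passed at 0.0229, 0.039 and 0.0453. AT4G37220 lost its call without either Col-0 MeJA array or ein3 eil1 MeJA replicate 1, and AT4G35720 without any 1 of the 4 arrays. AT2G28570 lost its call under 11 alternatives, 9 of which left out 1 array. Among these arrays were Col-0 MeJA replicate 2 and either ein3 eil1 MeJA array. Without Col-0 MeJA replicate 2 the value of AT2G28570 was −0.46. EXPA7 also differed here, by −1.03 ± 0.16 (limma adjusted p = 0.00217), and its part in these results was not tested. The count of 23 fell without either Col-0 MeJA array and without ein3 eil1 MeJA replicate 2, and it rose without ein3 eil1 MeJA replicate 1. The count of 9 fell without any 1 of these 4 arrays. Without Col-0 MeJA replicate 1 the share of all probe sets called fell as well, in both directions.

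**Figure D4:**
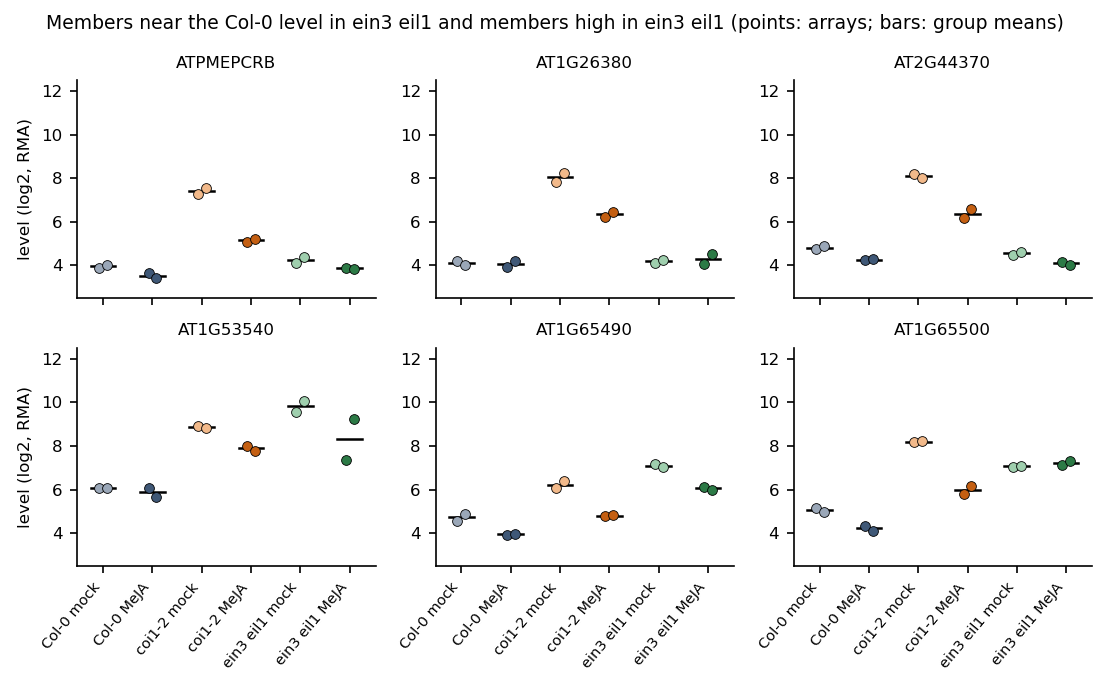
Levels (log2, RMA) of 6 members in the 6 groups, with 1 point per array and a bar at the mean of the 2 arrays. In ein3 eil1, ATPMEPCRB, AT1G26380 and AT2G44370 lay far below coi1-2 mock (their highest ein3 eil1 arrays are at 4.39, 4.5 and 4.63), while AT1G53540, AT1G65490 and AT1G65500 stood high in ein3 eil1 under mock and, by limma, above Col-0 under MeJA.

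Without a test, because Col-0 mock entered the rule, 2 further differences describe the members. In untreated ein3 eil1 both arrays lay above both Col-0 mock arrays in 83 members (69.7%, against 23.2% of all probe sets) and below in 18 (15.1%, against 29.5%), with a median difference of 0.61 and a range of −1.36 to 3.76. The rule requires low Col-0 mock values, so a lean to higher values in any other group is in part built in. The ein3 eil1 mock mean lay between those of Col-0 mock and coi1-2 mock in 85 members, above coi1-2 mock in 8 and below Col-0 mock in 26. The widest was AT1G53540, where Col-0 mock read 6.06 and 6.05, coi1-2 mock 8.93 and 8.84, and ein3 eil1 mock 9.58 and 10.05. Of the 34 members at least 1 above Col-0 mock in ein3 eil1 mock, MeJA lowered 10 in ein3 eil1, and of the other 85 it lowered 24.

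In Col-0 itself both MeJA arrays lay below both mock arrays in 53 members (44.5%, against 27.3% of all probe sets) and above in 19 (16.0%, against 20.0%), and 47 overlapped. The median difference was −0.20, against −0.03 for all probe sets, and the range −1.90 to 1.02. AT1G72060 (−1.90), AT4G37220 (−1.60) and AT2G43620 (−1.34) lay lowest among the named, and AT5G13200 (0.76), AT2G47550 (0.71) and AT5G24760 (0.69) highest, all ranked after their values were seen. The rule placed both coi1-2 MeJA arrays below both coi1-2 mock arrays in every member. In ein3 eil1 this order also held in 33 members that had it in Col-0 and in 31 that did not. The former are 62.3% of the 53 members with both Col-0 MeJA arrays below both mock arrays, and the latter are 47% of the other 66. Of all probe sets 21.5% had this order in ein3 eil1, and their split by Col-0 was not computed. Of the 34 members called lower in ein3 eil1, 23 were among the 53 and 11 among the 66. The mean of Col-0 MeJA was below that of Col-0 mock in 84 members.

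**Figure D5:**
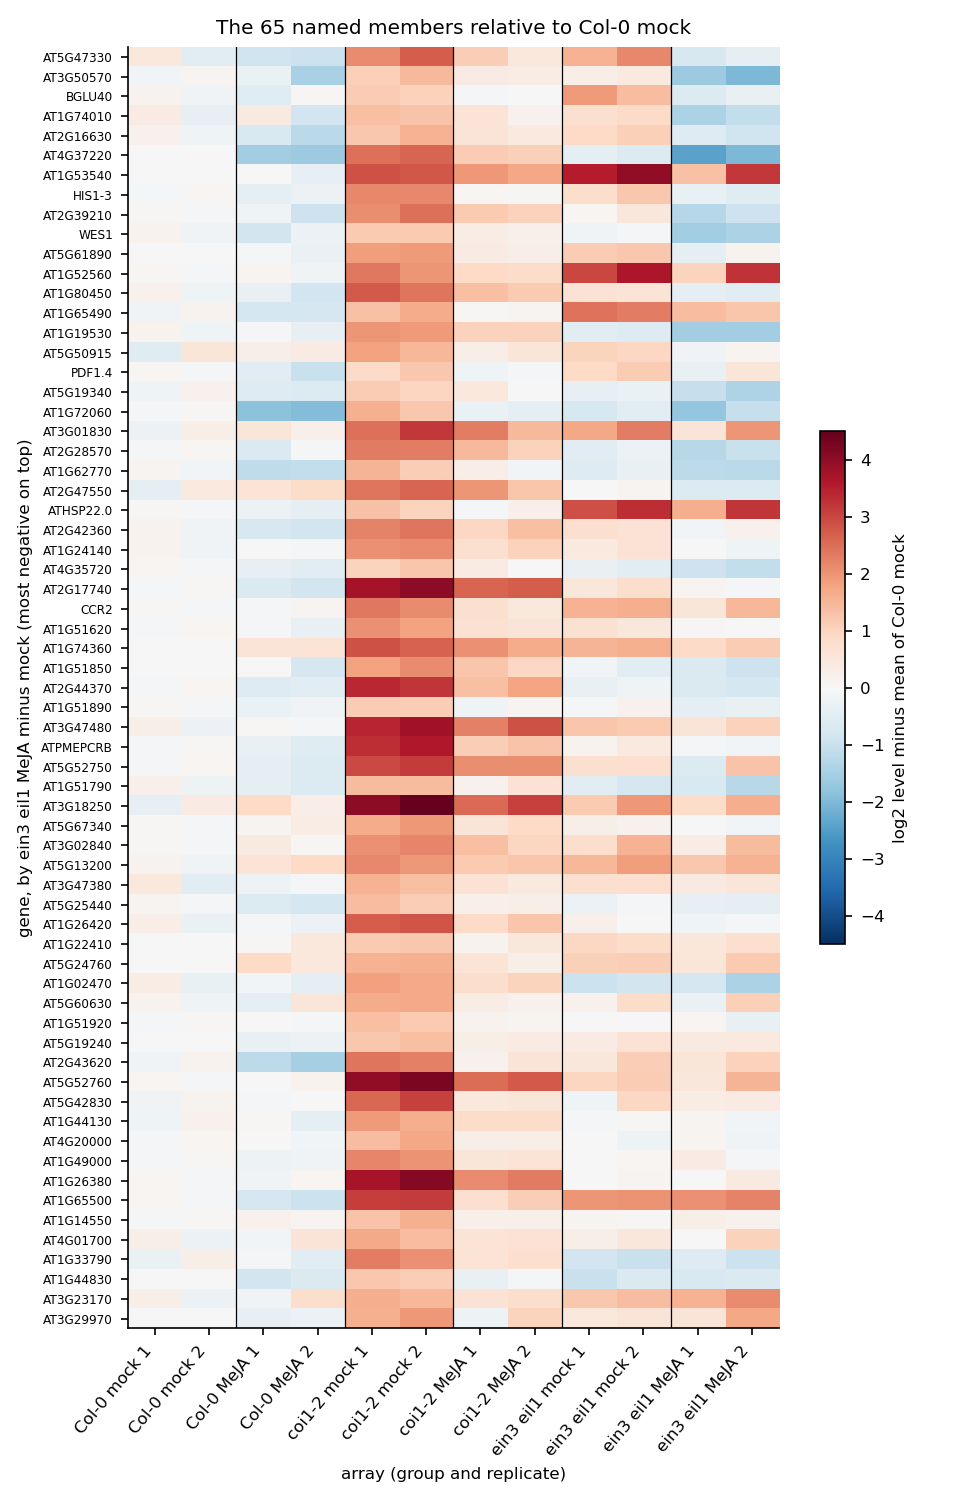
Levels of the 65 named members on the 12 arrays as the log2 difference from the mean of Col-0 mock, ordered by the change with MeJA in ein3 eil1, most negative on top. The coi1-2 mock columns are high in every row by the rule, the ein3 eil1 mock columns are high in part of the rows (AT1G53540, AT1G52560 and ATHSP22.0 the most), and the 2 ein3 eil1 MeJA columns differ from each other in those 3 rows.

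Some members lie close together in the genome. In the gene order of the TAIR10.1 gene table, 14 of the 65 named members were within 10 genes of another, in 8 pairs, and 2 pairs were direct neighbours: AT1G65490 with AT1G65500, and AT5G52750 with AT5G52760. Members of a pair did not always move alike, as the first pair shows. The second was alike in coi1-2, where AT5G52750 read 4.35 and 4.53 (Col-0 mock), 7.41 and 7.6 (coi1-2 mock) and 6.53 and 6.52 (coi1-2 MeJA), with a loss of 32.0% against 35.7% for AT5G52760. AT1G26380 and AT1G26420 were 4 genes apart, and both stayed at the wild type level in ein3 eil1, where the latter read 3.95 and 3.71 (mock) and 3.54 and 3.65 (MeJA). Neighbours with like sequence can share probe hybridization, and how far the probe sets of a pair read both transcripts was not analysed here.

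Other pathways were read from 12 lists with 157 genes, chosen with earlier results known, of which 21 genes outside the members had a named probe set. Between coi1-2 mock and Col-0 mock limma called 6 of the 21 higher and 2 lower, against 7.36% and 6.07% of all probe sets. SAG101, a lipase-like protein of salicylic acid defence, was the 1 measured gene of 20 in that list and stood in the senescence list as well. It was higher in coi1-2 mock, at 5.90 and 5.97 against 4.65 and 4.62 (1.3 ± 0.19, limma adjusted p = 0.000521), and with MeJA in coi1-2 it was at 5.3 and 5.72, a change of −0.43 ± 0.19 that was not called (0.392). SAG29, the other measured senescence gene, was at 0.1 in the mock comparison (limma adjusted p = 0.752). Among the dark and sugar starvation genes, MCCA, a subunit of the leucine-degrading methylcrotonyl-CoA carboxylase, and APG8A, an autophagy protein, were higher in coi1-2 mock (0.59 ± 0.15 and 0.68 ± 0.17, limma adjusted p = 0.0223 and 0.0205), and all 4 measured genes of that list were lower in ein3 eil1 than in Col-0 under MeJA, by −0.97 to −0.86. The zinc finger gene STZ was higher in coi1-2 mock (1.81 ± 0.24, limma adjusted p = 0.000377), while CML38, the other measured touch gene, was not called (0.0604).

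The abscisic acid and drought list holds the member HIS1-3, while its 2 other measured genes, the cold- and drought-induced COR15A and COR47, were not called in coi1-2 mock (−0.55 ± 0.19 and 0.39 ± 0.24, limma adjusted p = 0.0801 and 0.344). With MeJA in ein3 eil1, where HIS1-3 fell, COR15A rose by 1.11 ± 0.19 (limma adjusted p = 0.00563). The detoxification genes GSTU22, a glutathione transferase, and UGT73B4, a glucosyltransferase, were higher in coi1-2 mock too (2.45 ± 0.28 and 1.59 ± 0.25, limma adjusted p = 9.83e-05 and 0.00099). Unlike the members they rose with MeJA in coi1-2, by 1.63 ± 0.28 and 2.19 ± 0.25 (limma adjusted p = 0.00621 and 0.000365), and all 4 measured genes of that list rose with MeJA in ein3 eil1. In the jasmonate list, with 4 measured genes, JRG21 was lower in coi1-2 mock (−1.76 ± 0.29, limma adjusted p = 0.00139) and the other 3 were not called. With MeJA, JRG21 rose in coi1-2 (1.81 ± 0.29, limma adjusted p = 0.00394), where the other 3 were again not called. Its rise in Col-0 was 3.08 ± 0.29 (limma adjusted p = 2.48e-05). The defensin gene PDF1.2, known for its induction by jasmonate together with ethylene, was higher in ein3 eil1 MeJA than in Col-0 MeJA, at 8.30 and 9.95 against 4.85 and 4.72 (4.34 ± 0.41, limma adjusted p = 5.42e-05), and its ein3 eil1 mock arrays were at 7.95 and 8.79. Whether this probe set also reads closely related defensin genes was not analysed here. The clock gene GI was not called in any of these comparisons, and 0 genes of the phosphate starvation list had a named probe set. Of all 21, limma called 5 higher and 2 lower with MeJA in ein3 eil1, against 1.64% and 2.59% of all probe sets. Most genes of these lists had no named probe set, so the lists do not describe their pathways as a whole.

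Among the 54 members without a single gene name, the mock difference ran from 1.00 to 4.41 (median 1.97) and the change with MeJA in coi1-2 from −2.31 to −0.81 (median −1.06), against medians of 1.94 and −1.17 for the 65 named. With MeJA in ein3 eil1 they ran from −1.62 to 0.25 (median −0.41), against −2.44 to 0.64 (median −0.47) for the named. Of the 15 that limma called lower in ein3 eil1, 1 without a name had the smallest adjusted p, with 8.29 and 8.21 in mock and 6.81 and 6.49 in MeJA (−1.60 ± 0.17, limma adjusted p = 0.000266).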

How the data were processed

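Expression was measured on 12 Affymetrix ATH1 arrays, 2 per group, from 100 ng of total RNA each. The deposited table holds log2 levels of 22810 probe sets. The submitters' processing notes name RMA, Affymetrix Expression Console and Partek, and their versions are not given in the sources used here. Because RMA gives the arrays nearly 1 distribution, a shift common to most transcripts would be lost. Without the 64 controls, 22746 probe sets were analysed. Genes were named from the platform annotation (13513 probe sets with 1 name, 503 with several, 8730 with none) and from the gene table of TAIR10.1, which was used for names and gene order only.

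The members and the gene lists were chosen with earlier results of these data known. A linear model with 1 mean for each of the 6 groups was fitted to the log2 levels of all 12 arrays (limma 3.58.1, lmFit then eBayes, R 4.3.3), which left 6 residual degrees of freedom and added 6.28 prior ones. Benjamini-Hochberg adjustment ran over all probe sets, and calls were made under 0.05. Only ein3 eil1 MeJA against ein3 eil1 mock and ein3 eil1 MeJA against Col-0 MeJA were tested for members. The fit was tested on simulated data with the same spread in all groups. That test does not show how calls behave under the wider spread of ein3 eil1 MeJA. Python 3.11.15 with pandas 2.3.3 made the tables and matplotlib 3.10.9 the figures.

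Named were members with a symbol, the 8 with the lowest change with MeJA in coi1-2 and the 8 with the highest mock difference among the other named members, up to 8 called members per tested comparison and direction by adjusted p, probe sets next to a threshold, and list genes (up to 4 by adjusted p and up to 2 not called). Genes named beyond that rule are marked in the text. The main fit treated the samples as unpaired. Of 15 pairs of groups, 4 had a correlation of deviations over 0.1 (range −0.218 to 0.232). This cannot exclude that the replicate numbers in the labels pair samples. Alternatives were other scaling, filters on dim probe sets, other variance models and samples, the replicate number as a block, averaged probe sets, a threshold of 0.01, other thresholds of the rule, and each array left out in turn. Promoter motifs were not analysed here. The number of arrays limits the precision of every comparison.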

Additional observations from a re-analysis of the deposited data

Results flagged for a closer look

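In 6 members (5.04%, against 21.6% of all probe sets) both ein3 eil1 MeJA arrays lay above both ein3 eil1 mock arrays. The rule placed the coi1-2 arrays of every member in the opposite order. Of these 6, AT1G65500 and AT3G23170 were flagged. The difference between the genotypes was not tested, because the coi1-2 arrays chose the members. AT1G65500 was at 7.05 and 7.10 in ein3 eil1 mock and at 7.13 and 7.30 in ein3 eil1 MeJA, a change of 0.14, against −2.21 in coi1-2. AT3G23170 was at 6.53 and 6.68 and then at 6.87 and 7.41, a change of 0.53, against −0.82 in coi1-2. Neither change in ein3 eil1 was called by limma (adjusted p = 0.729 and 0.374). Of the other members, 4 had the same order of arrays: AT3G29970 (0.64), AT1G14550 (0.15) and 2 unnamed probe sets (0.25 and 0.20), given after their values were seen.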

How the results depend on the processing

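The number of members was 68 with thresholds of 1.2 and −1.0 and 215 with 0.8 and −0.6, which follows from the rule, 121 with centred arrays (117 shared) and 120 with quantile normalization (116 shared). Leaving out 1 array of the rule gave 108 to 156 members. In ein3 eil1 MeJA against ein3 eil1 mock the 34 calls became 20 at an adjusted p under 0.01 and 20 in a fit of the 4 arrays of the comparison, and 17 to 45 with 1 array left out. The other alternatives gave 26 to 39, and 0 members were higher in any of those fitted. In ein3 eil1 MeJA against Col-0 MeJA the 32 calls became 17 at an adjusted p under 0.01. A fit of the 4 arrays of the comparison gave 10, against 0.866% of all probe sets lower and 1.1% higher. With 1 array left out the count fell or rose. The other alternatives gave 22 to 37, and in the fit of the 6 arrays outside the rule 18 were higher and 4 lower. Fewer samples in the fit account for the lower residual degrees of freedom (2 with 4 arrays), and the cause of the other moves was not tested. Of the members named by the rule, 10 of 12 calls in the first comparison and 5 of 16 in the second held under every alternative, and 0 called values changed sign. The calls of list genes moved from 7 to 6 and 8, and from 10 to 11 and 10, with centring and quantile normalization. With the replicate number as a block (replicate block) the counts of calls were 33 in each comparison. The correlation of deviations was 0.232 between ein3 eil1 mock and ein3 eil1 MeJA and −0.112 between Col-0 MeJA and ein3 eil1 MeJA, and a block with the Col-0 MeJA numbers crossed, chosen after seeing the data, gave 35 calls. Members below the median of all probe sets, 65 in Col-0 mock, may have differences that are too small, and no detection calls were used.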

Other observations

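The opposite pattern was also present. Of 291 probe sets at least 1 lower in coi1-2 mock than in Col-0 mock, 59 (20.3%) were at least 0.8 higher in coi1-2 MeJA than in coi1-2 mock with arrays that did not overlap. Of the 648 probe sets at least 1 higher, 121 (18.7%) met the rule described above. Both counts share the coi1-2 mock arrays and are given without a test. These arrays enter both differences of each pattern, so part of each count can be built in. Of all probe sets 0.888% met the rule's condition on MeJA in coi1-2, and the share that met the opposite condition was not computed.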
